A study of Mus musculus with 6 samples.

Results

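Bcl11b and Bcl11a encode the 2 zinc-finger proteins of the BCL11 family, and they were followed here in thymocytes deficient in the E protein E2A and in wild-type thymocytes. The members were all probe sets, the groups of short probes that read 1 transcript, that the array annotation gives to only 1 of these genes. They are 2 of 18193 genes measured and 11 of 45037 probe sets, 4 for Bcl11b and 7 for Bcl11a. They were read on 3 arrays of E2A-deficient cells and 3 arrays of wild-type cells, all sorted as DN2 cells from fetal thymus of mice on the FVB background, with no treatment named. The labels do not give the E2A allele, the age of the fetuses or the number of animals behind an array. Values are linear intensities. Each change is the E2A-deficient less the wild-type level on the log2(intensity + 1) scale, from limma, and adjusted p-values are Benjamini-Hochberg values over all probe sets or all genes, with a threshold of 0.05.

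DN2 thymocytes lack both co-receptors, CD4 and CD8, and are at the step where a progenitor gives up other fates and commits to the T-cell lineage. Bcl11b is switched on at this step, and in its absence T progenitors fail to commit and can turn into cells resembling natural killer cells. Bcl11a acts earlier, in multipotent and lymphoid progenitors, and is needed for B cells and plasmacytoid dendritic cells; in red cells it silences the embryonic globin genes. Both proteins act mainly as repressors that bring chromatin complexes such as NuRD to DNA. E2A is the pair of E proteins made from Tcf3, which bind DNA at sites called E boxes.

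The sequences just before a RefSeq start of each gene are shown because E2A binds E boxes. Each is 250 bases in assembly GRCm38.p6, 5′ to 3′ on the strand of the gene, and capitals mark E boxes, searched as CANNTG, which reads the same on both strands. Bcl11b is taken from chr12:108003415-108003664 on the minus strand and Bcl11a from chr11:24080445-24080694 on the plus strand. Both windows lie inside the outermost RefSeq span of their gene, so other starts of the gene are not covered.
Bcl11b: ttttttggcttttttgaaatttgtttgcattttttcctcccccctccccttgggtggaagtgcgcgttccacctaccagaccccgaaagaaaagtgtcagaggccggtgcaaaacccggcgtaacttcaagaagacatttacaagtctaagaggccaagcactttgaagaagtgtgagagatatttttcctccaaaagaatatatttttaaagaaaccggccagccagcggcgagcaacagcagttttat
Bcl11a: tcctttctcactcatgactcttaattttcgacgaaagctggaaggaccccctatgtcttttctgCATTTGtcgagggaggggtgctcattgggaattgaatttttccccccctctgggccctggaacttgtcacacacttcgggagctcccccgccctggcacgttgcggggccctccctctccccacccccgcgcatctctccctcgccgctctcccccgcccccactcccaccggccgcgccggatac
The Bcl11b window held 0 matches and the Bcl11a window held 1, CATTTG. At least 1 was held by 66.2% of the 32851 such RefSeq windows, so a match is common. These are matches of letters in 1 window, and binding of E2A was not measured.

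All 4 Bcl11b probe sets read lower in E2A-deficient cells, and 1 of them passed the test. In each of the 4, every E2A-deficient array lay below every wild-type array. The 7 Bcl11a probe sets all had overlapping groups and 0 passed by limma, with 0 at an unadjusted p under 0.05. For comparison, 1.79% of all probe sets passed in either direction and 0.580% passed as lower. Groups did not overlap in 16.9% of all probe sets, with the E2A-deficient arrays all lower in 6.79%. An unadjusted p under 0.05 was reached by 12.5%, against 4 of 4 for Bcl11b, and 48.2% had a change below 0. The 4 Bcl11b probe sets read 1 gene on the same arrays, so they are not separate evidence.

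The brightest Bcl11b probe set, 1450339_a_at, is designed on the RefSeq messenger RNA of the gene, and its suffix marks probes common to several transcripts of 1 gene. It read 850.3, 846 and 895 in E2A-deficient replicates 1, 2 and 3, against 969, 1358 and 1174 in wild-type replicates 1, 2 and 3. The E2A-deficient arrays lay close together, at 864 ± 27.0, while the wild-type arrays, at 1167 ± 194, were spread out with replicate 1 nearest to them (SD, n = 3 each). The log2 change was -0.42 (SE 0.116, 95% interval -0.69 to -0.15), and it did not pass (limma adjusted p = 0.163 over probe sets, 0.122 over genes). Without wild-type replicate 1 it was -0.55 and passed (limma adjusted p = 0.0393 over probe sets, 0.0274 over genes).

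The probe set 1452966_at gave the Bcl11b call. It is designed on a sequence record other than the RefSeq messenger RNA, and where its probes lie in the transcript was not examined. It read 150.3, 149.6 and 156 in E2A-deficient cells and 262, 309 and 215 in wild-type cells. Even the lowest wild-type array stood well above the narrow band of E2A-deficient values, which averaged 152 ± 3.30 against 262 ± 47.0 in wild-type cells (SD, n = 3 each). It fell by 0.77 on the log2 scale (SE 0.122, limma adjusted p = 0.0286), which is 0.587 of the wild-type level. The call was lost without E2A-deficient replicate 1 (0.0994), 2 (0.0949) or 3 (0.0989) and without wild-type replicate 1 (0.0758).

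The other Bcl11b probe sets, also designed on records other than the RefSeq messenger RNA, had the widest and the smallest differences. Intensities of 1435227_at were 601, 445 and 359 in E2A-deficient cells, against 679, 831 and 1046 in wild-type cells. Both groups were spread out, and the interval of its log2 change, -0.87, ran from -1.37 to -0.37; it missed the threshold (limma adjusted p = 0.118). Among only probe sets brighter than the median, where fewer were tested, the same change passed (limma adjusted p = 0.0494). Intensities of 1438784_at were 127, 141 and 128 in E2A-deficient cells and 187, 161 and 160.3 in wild-type cells. It was the only 1 of the 4 not above the upper quartile of its array throughout, and its log2 value differed by -0.36, short of the threshold (limma adjusted p = 0.0925).

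The 4 probe sets gave changes from -0.87 to -0.36, with a median of -0.59 against 0.0039 over all probe sets. They did not rank the arrays of 1 group in the same order. Wild-type replicate 1, for example, was the lowest wild-type array in 1450339_a_at and 1435227_at and the highest in 1438784_at. Averaging the log2 values of all probe sets of each gene gave Bcl11b a change of -0.60, and this value passed (limma adjusted p = 0.00306 over genes).

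**Figure D1:**
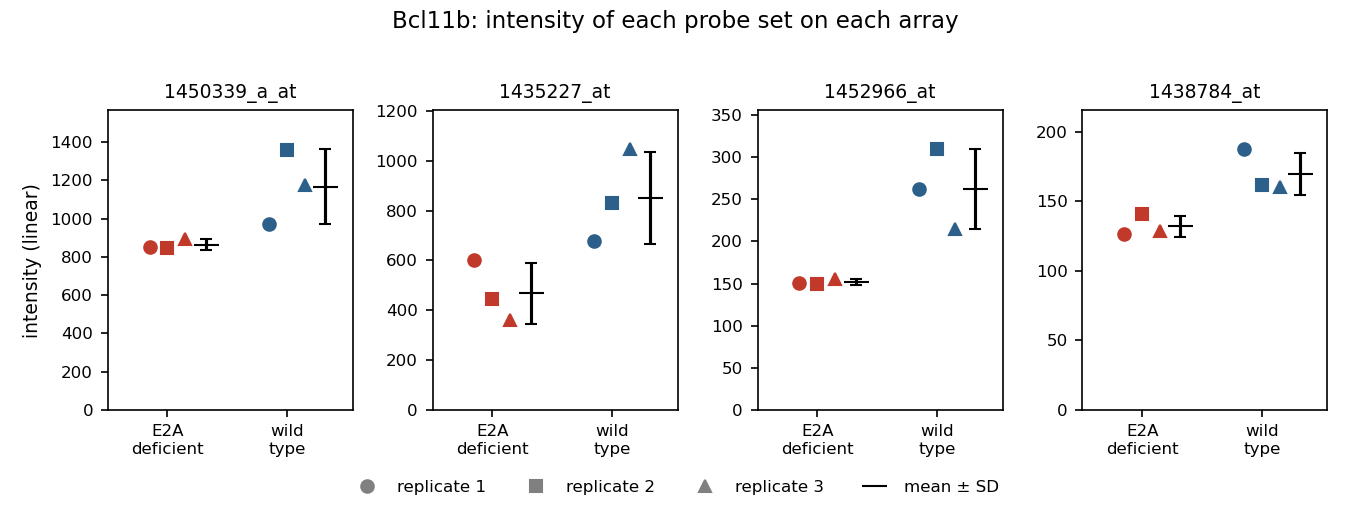
Linear intensity of the 4 Bcl11b probe sets on each array (vertical axes from 0), with 3 E2A-deficient arrays in red on the left and 3 wild-type arrays in blue on the right of each panel; marker shapes give the replicate number and bars the mean ± SD. In each panel the red points lie below the blue points, and in 1452966_at the red points lie between 149.6 and 156.

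Bcl11a signal was present in both genotypes. Its brightest probe set, 1419406_a_at, also designed on a RefSeq messenger RNA, read 636, 448 and 424 in E2A-deficient replicates 1, 2 and 3, against 564, 571 and 380.0 in wild-type replicates 1, 2 and 3. The groups were interleaved, with the highest array in the E2A-deficient group and the lowest in the wild-type group. Means were 503 ± 116 in E2A-deficient and 505 ± 108 in wild-type cells (SD, n = 3 each), which gave a log2 difference of -0.0065 with a limma adjusted p of 0.998. The 95% interval, -0.48 to 0.47, still allows levels between 0.717 and 1.38 of the wild-type level, so these arrays do not show that Bcl11a was equal.

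The next Bcl11a probe set, 1456632_at, read 196, 171 and 216 in E2A-deficient cells and 194, 183 and 159.96 in wild-type cells. Its groups overlapped, and a log2 difference of 0.12 did not pass (limma adjusted p = 0.789). Probe sets 1447335_x_at and 1447334_at are built on the same sequence record, so they are not separate evidence, and the suffix of the first marks probes that can also match other sequences. The first read 141, 146 and 143 in E2A-deficient cells and 168, 157 and 138 in wild-type cells, a log2 change of -0.10. The second read 87.9, 90.6 and 81.5 in E2A-deficient cells and 101, 98.8 and 83.4 in wild-type cells, a change of -0.12. Both overlapped through wild-type replicate 3.

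The remaining Bcl11a probe sets overlapped as well. Probe set 1426552_a_at read 146, 128 and 116 in E2A-deficient cells and 131, 129.6 and 122 in wild-type cells, a change of 0.026. Probe set 1457072_at read 101, 88.0 and 107 in E2A-deficient cells and 101, 107 and 93.4 in wild-type cells, a change of -0.029. Probe set 1453814_at stayed below the median of every array, at 62.3, 66.5 and 62.0 in E2A-deficient cells and 65.9, 68.2 and 68.5 in wild-type cells. The lowest intensities of the arrays were between 41.4 and 45.1, a floor that compresses differences of dim probe sets. Over the 7 probe sets the changes ran from -0.12 to 0.12 with a median of -0.029, 5 below and 2 above 0, and limma adjusted p-values from 0.648 to 0.998. In 6 of the 7, wild-type replicate 3 was the lowest wild-type array. Xist, the RNA of the inactive X chromosome, varied over all arrays and was lowest in that array. It read 1901, 1247 and 2154 in E2A-deficient cells and 3055, 4456 and 58.7 in wild-type cells. Differing shares of male and female cells are a possible reading of Xist. Their part in the Bcl11a or Bcl11b values was not tested.

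**Figure D2:**
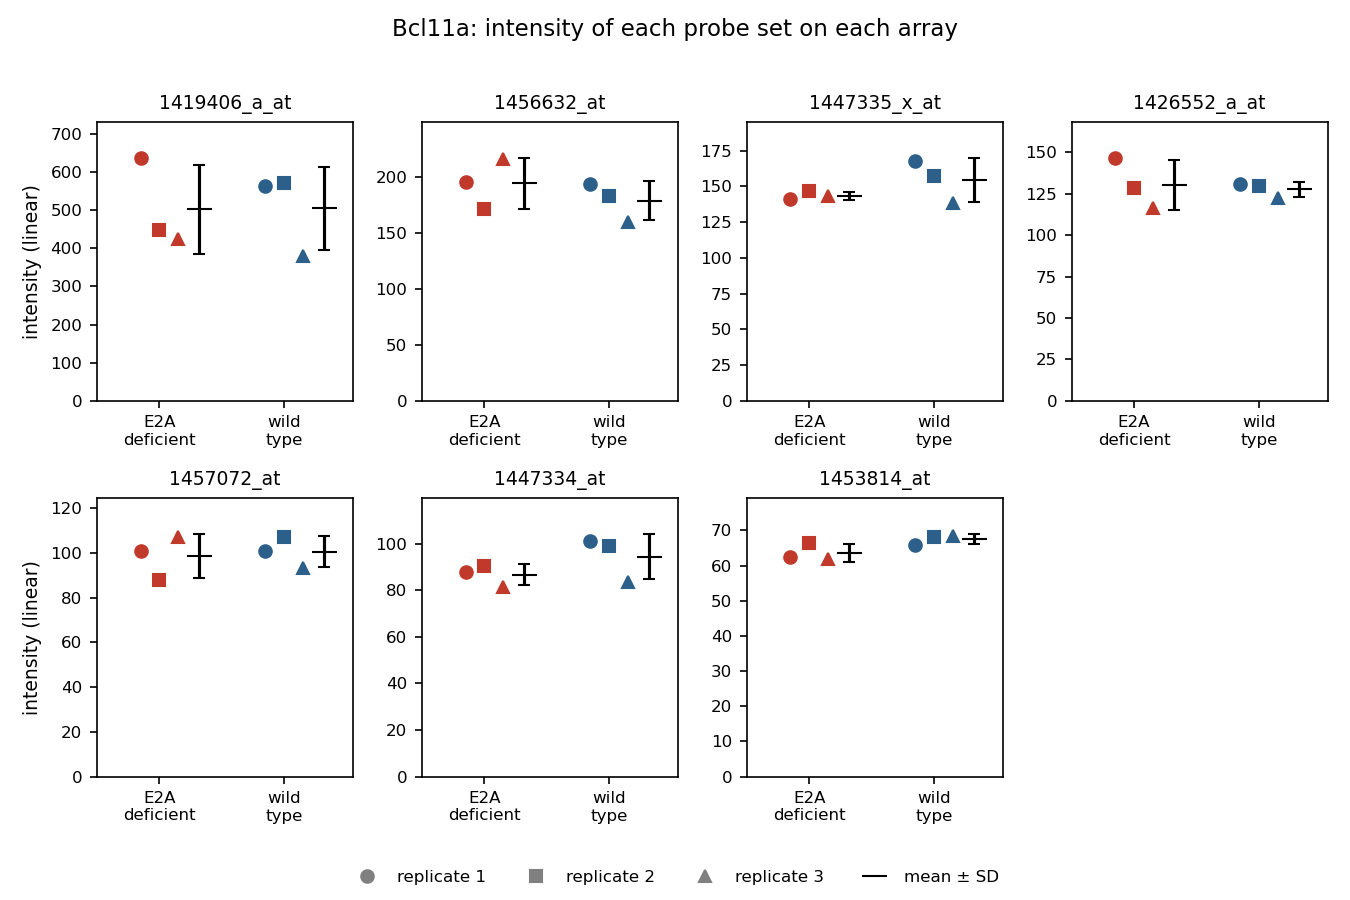
Linear intensity of the 7 Bcl11a probe sets on each array (vertical axes from 0), drawn as in the plot of Bcl11b, with E2A-deficient arrays in red on the left and wild-type arrays in blue on the right; bars are mean ± SD of 3 arrays. The 2 colours overlap in every panel, and wild-type replicate 3 (blue triangle) is the lowest wild-type array in 6 of the 7.

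**Figure D3:**
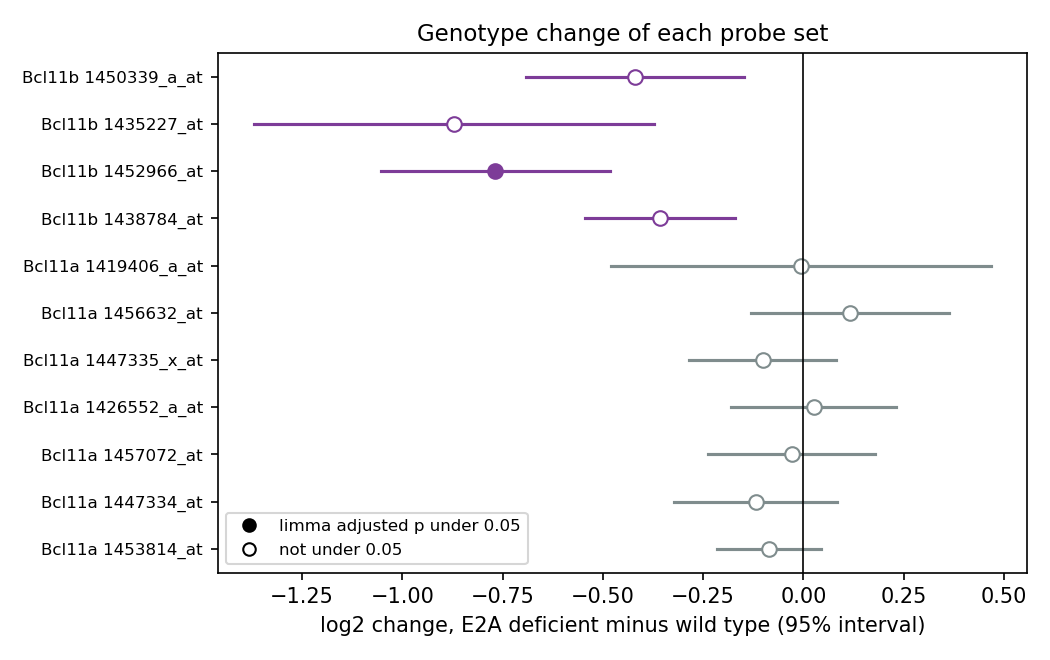
Log2 change (horizontal axis, E2A deficient minus wild type) of each of the 11 probe sets with its unadjusted 95% interval from limma, Bcl11b in purple and Bcl11a in grey; the filled point is the probe set that passed at an adjusted p under 0.05. All 4 Bcl11b points lie at or below -0.36, and all 7 Bcl11a points lie between -0.12 and 0.12.

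Whether the genotype affected Bcl11b differently from Bcl11a was tested on the difference between their brightest probe sets within each array. This log2 difference was 0.42, 0.92 and 1.08 in E2A-deficient cells and 0.78, 1.25 and 1.62 in wild-type cells, and only its change between genotypes is interpretable, not its level. The groups overlapped. The change was -0.41 (two-sided exact permutation test, p = 0.3, n = 3 each, smallest possible p 0.1). With 3 arrays a group this test cannot reach 0.05 whatever the data, so it leaves undecided whether the changes of the genes differ. With the mean of all probe sets of each gene the change was -0.58, and the exact permutation p was the smallest this design can give, 0.1.

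The targeted gene was lower in the E2A-deficient arrays. The brightest Tcf3 probe set read 236, 229 and 281 in E2A-deficient cells and 477, 421 and 414 in wild-type cells, with no overlap. Per gene its log2 change was -0.81, and -0.52 as the mean of probe sets. The labels do not say where in the gene the mutation lies, so a probe set outside it would not measure the loss. The arrays had medians from 77.4 to 79.0. Of the 5 DN2 markers, Kit, Il2ra and Cd44, which define the stage, and the receptor gene Il7r did not pass (log2 changes 0.26, 0.13, 0.044 and -0.37). Thy1, a surface glycoprotein of T cells, fell to 146 ± 12.3 in E2A-deficient cells, against 370 ± 53.9 in wild-type cells (SD, n = 3; log2 change -1.32, limma adjusted p = 0.00158). The co-receptor genes Cd4, Cd8a and Cd8b1 read between 61.3 and 98.2 on every array, and Cd8b1 stayed below the array medians. In sorted bulk cells, fewer cells that express a gene and less RNA per cell cannot be told apart.

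In control probe sets, the 5′ to 3′ signal ratio was higher in the E2A-deficient arrays than in wild-type replicates 1 and 3. This ratio can reflect RNA quality and also the amplification, which favours 3′ ends. For Gapdh it was 12.3%, 9.06% and 10.0% in E2A-deficient arrays and 7.36%, 9.54% and 7.38% in wild-type arrays. The 5′ to 3′ signal ratio of the beta-actin control probe sets was 16.5%, 15.98% and 14.9% in E2A-deficient arrays and 10.4%, 16.2% and 9.81% in wild-type arrays, where replicate 2 stood with the E2A-deficient arrays. In a fit that adjusted for it, the Bcl11b probe set 1452966_at still passed (log2 change -1.001, limma adjusted p = 0.0426), and 1450339_a_at was at -0.60 and did not pass (0.235). Probe sets 1435227_at and 1438784_at did not pass in that fit either. Over all alternatives their limma adjusted p-values reached 0.542 and 0.560. Tcf3 itself did not pass in that fit (log2 change -0.75, limma adjusted p = 0.106). The part of RNA quality or amplification in these results was not tested further.

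Among the factors known to switch Bcl11b on in T progenitors, 4 of 5 could be read: 1 rose, 1 fell and 2 missed the threshold. Across all 18193 genes 3.46% passed, 2.40% as higher and 1.06% as lower. The lists here and below were chosen with earlier results of these arrays known. Notch1, the receptor whose signal starts the T-cell programme, read 1065, 819 and 772 in E2A-deficient cells and 2588, 2555 and 2113 in wild-type cells, and fell by 1.46 on the log2 scale (SE 0.136, limma adjusted p = 0.00215). Averaged over its probe sets, the Notch1 change was -0.91. Gata3, a zinc-finger factor needed for Bcl11b activation, rose, at 731, 594 and 802 in E2A-deficient cells against 280.4, 274 and 219.9 in wild-type cells (log2 change 1.45, limma adjusted p = 0.00215). It just missed the threshold once the actin ratio was adjusted for (limma adjusted p = 0.0521). The DNA-binding factor Runx1 was at -0.51 (limma adjusted p = 0.0972) and its partner Cbfb at -0.065 (0.867), and neither passed. Runx1 passed once dim genes were left out of the fit (0.0408) and as the mean of its probe sets (-0.31, 0.0334). The median of the 4 was -0.29, against 0.015 over all genes.

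Genes known to be higher in T progenitors that lack Bcl11b gave 10 measured members of 11. Here 3 rose, 0 fell and 7 missed the threshold, with a median log2 change of 0.16. An unadjusted p under 0.05 was found in 5 of the 10, against 15.7% of all genes. Id2, which encodes an antagonist of E proteins, read 388, 436 and 502 in E2A-deficient cells and 149, 178 and 159 in wild-type cells (log2 change 1.44, limma adjusted p = 9.71e-04). Averaged over its probe sets, the Id2 change was 0.55. Zbtb16, the zinc-finger factor of innate-like T and lymphoid cells, read 669, 751 and 758 in E2A-deficient cells and 337, 250.2 and 242 in wild-type cells (1.40, limma adjusted p = 0.00213). The scavenger-receptor gene Cd163l1 read 379, 793 and 683 in E2A-deficient cells and 137, 136 and 167 in wild-type cells (2.01, limma adjusted p = 0.00752). It was read by a probe set that can match other sequences, and it missed the threshold once the actin ratio was adjusted for (limma adjusted p = 0.0806). Read only by probe sets that do not match other sequences, its change was 0.85 and passed (0.00540). In all 3 the groups were far apart. Of the natural killer receptor genes of the list, Ncr1, Klrc1, Klrd1 and Klrk1 stayed below the array medians in both genotypes. Nfil3, a factor of the natural killer lineage, was at 0.38 and did not pass (limma adjusted p = 0.0919). Its groups did not overlap, and it passed with trended robust variances (limma adjusted p = 0.0218).

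Genes that rise at T-cell commitment together with Bcl11b gave 11 measured members: 1 rose, 4 fell and 6 missed the threshold, with a median of -0.41. An unadjusted p under 0.05 was found in 9 of the 11, against 15.7% of all genes. Changes were below 0 in 9 and above 0 in 2. Cd3g and Cd3e, which encode CD3 chains of the T-cell receptor complex, fell furthest, and a further chain gene, Cd3d, was at -0.41 and did not pass (limma adjusted p = 0.122). Cd3g read 219, 207 and 278 in E2A-deficient cells and 1465, 1413 and 918 in wild-type cells (log2 change -2.41, limma adjusted p = 0.00116). Cd3e fell by 1.60 on the log2 scale, the signalling adaptor Lat by 1.09 and the ETS factor Ets1 by 1.05, with limma adjusted p-values between 2.00e-04 and 0.00307. Lef1, a DNA-binding factor of the T lineage, rose instead, at 159, 152 and 172 in E2A-deficient cells against 89.5, 91.1 and 94.5 in wild-type cells (log2 change 0.80). The recombinase gene Rag1 (-0.66) and the pre-TCR gene Ptcra (-0.14) did not pass. Rag1 passed once dim genes were left out of the fit (limma adjusted p = 0.0459).

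Bcl11a belongs to a group of progenitor regulators that fall as T cells commit. Among the 14 others, all measured, 1 rose, 1 fell and 12 missed the threshold, with a median of -0.16. Of the 14, 8 had an unadjusted p under 0.05, which 15.7% of all genes reached. Changes were below 0 in 9 and above 0 in 5. Lyl1, which encodes a partner of E proteins, read 811, 755 and 746 in E2A-deficient cells and 1397, 1336 and 1289 in wild-type cells (log2 change -0.80, limma adjusted p = 0.00101). Meis1, a homeodomain factor of stem cells, read 207, 201 and 256 in E2A-deficient cells and 137, 124 and 141 in wild-type cells (0.71, limma adjusted p = 0.0137). That call was lost without wild-type replicate 2 (limma adjusted p = 0.0523) and in the fit adjusted for the actin ratio (0.0645), and its mean over probe sets was 0.47. Spi1, whose product PU.1 drives myeloid fates, was at -0.15 and the stem-cell factor Lmo2 at -0.022, and neither passed. Nfe2 (-0.70), Erg (-0.45) and Hhex (-0.39) also missed the threshold, but each passed in at least 1 alternative. Nfe2 passed once dim genes were left out of the fit (limma adjusted p = 0.0235), and Hhex (0.0367) and Erg (0.0228) adjusted for the actin ratio.

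Among the genes of chromatin proteins that work with BCL11 factors, 4 of 34 passed, or 11.8%, against 3.46% of all genes, and each of the 4 lost its call in at least 1 alternative. The share over all genes includes dim genes, and these shares were not matched for brightness. Of the 12 NuRD subunits 1 rose and 1 fell, and 10 did not pass (median 0.12). The histone deacetylase gene Hdac1 read 580.2, 553 and 654 in E2A-deficient cells and 443, 432 and 395 in wild-type cells (log2 change 0.49, limma adjusted p = 0.0219). That call was lost without E2A-deficient replicate 1 (0.0699) or 3 (0.0626), without wild-type replicate 2 (0.0630) or 3 (0.0653), and adjusted for the actin ratio (0.229). Mta3, a NuRD subunit gene, read 499, 341 and 433 in E2A-deficient cells and 969.6, 916 and 707 in wild-type cells (-1.03, limma adjusted p = 0.0188). The Mta3 call was lost when E2A-deficient replicate 3 (0.0667) or wild-type replicate 1 (0.0516) or 2 (0.0704) was left out, and adjusted for the actin ratio. Read only by probe sets that do not match other sequences, Mta3 was at -0.59 and did not pass (0.123), and its mean over probe sets was -0.54.

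Of the 16 subunits of the BAF remodelling complex, with which BCL11 proteins copurify, 2 rose and 14 did not pass (median 0.082). Changes were above 0 in 10 and below 0 in 6, and 6 of the 16 had an unadjusted p under 0.05. The ATPase gene Smarca2 was at 148 ± 9.29 in E2A-deficient cells and 101 ± 12.4 in wild-type cells (SD, n = 3 each; log2 change 0.55, limma adjusted p = 0.0282). That call was lost when any 1 E2A-deficient array (0.0763 to 0.0929) or wild-type replicate 3 (0.0776) was left out, adjusted for the actin ratio (0.289), and averaged over probe sets (log2 change 0.19, 0.0599). Bcl7c rose by 0.29 (limma adjusted p = 0.0437) and lost that call on omission of each of the 6 arrays in turn (0.0588 to 0.143), and its mean over probe sets was 0.081. Of the other 6 partners 0 passed by limma, with 2 at an unadjusted p under 0.05 and the corepressor gene Rcor1 (0.24) at the smallest. The nuclear receptor genes Nr2f1 and Nr2f2 stayed below the array medians.

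**Figure D4:**
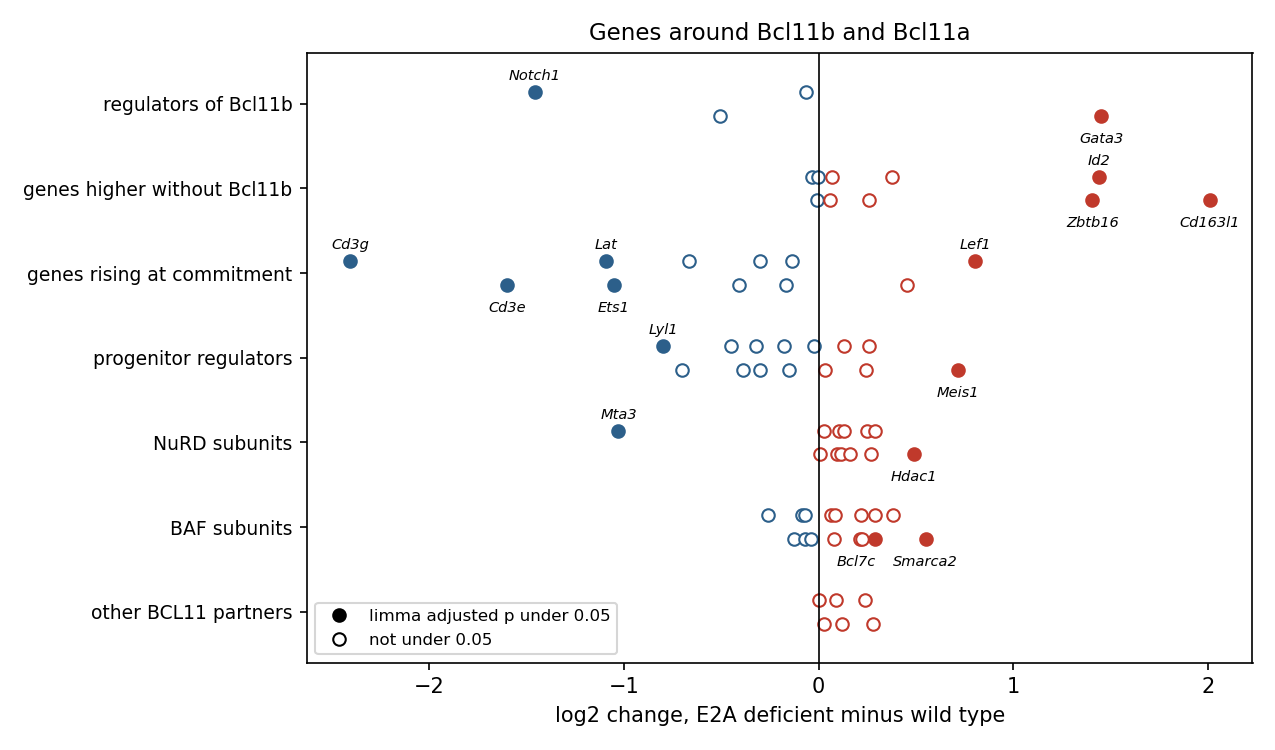
Log2 change (horizontal axis, E2A deficient minus wild type) of each measured gene of 7 lists around Bcl11b and Bcl11a, red above and blue below 0; filled, named points passed at a limma adjusted p under 0.05. Cd3g lies furthest left at -2.41 and Cd163l1 furthest right at 2.01, and 10 of the 12 NuRD subunits are open points.

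Other cells that use Bcl11a were checked through their markers. Of 9 B-lineage markers 8 were measured and 0 passed by limma, with 2 at an unadjusted p under 0.05, and their summed intensity was 621 to 646 in E2A-deficient and 673 to 707 in wild-type arrays. Cd79a, Ebf1, Pax5 and Blnk stayed below the array medians. Cd79b, at 121 to 165, and Igll1, at 91.25 to 110, lay above them on every array, and neither passed. Pou2af1 (log2 change -0.30, limma adjusted p = 0.109) passed only with trended robust variances (0.0176). The surrogate light chain gene Vpreb1 had the smallest p (log2 change -0.32, limma adjusted p = 0.0594). Vpreb1 passed in 4 alternatives, among them quantile normalization (limma adjusted p = 0.0472) and median centring (0.0489). Of 7 markers of plasmacytoid dendritic cells 1 fell and 6 did not pass, with 3 of the 7 at an unadjusted p under 0.05. Their sums were 872 to 941 in E2A-deficient and 840 to 1024 in wild-type arrays. The marker that fell was the surface antigen gene Ly6d, at 84.8, 77.9 and 76.7 in E2A-deficient cells and 124, 107 and 103 in wild-type cells (-0.47, limma adjusted p = 0.0285). The Ly6d call was lost when any 1 E2A-deficient array (0.0589 to 0.109) or wild-type replicate 2 (0.0679) was left out, and adjusted for the actin ratio (0.265). Ccr9 (0.44, limma adjusted p = 0.122) and Spib (-0.34, 0.0995) missed the threshold. Both passed with trended robust variances (limma adjusted p = 0.0443 and 0.0244), and Ccr9 also without E2A-deficient replicate 1 (0.57, 0.0358). The defining gene Siglech read 82.2 to 89.3 in E2A-deficient and 84.1 to 86.9 in wild-type arrays. Tcf4, at 434, 373 and 381 in E2A-deficient and 453, 372 and 320 in wild-type arrays, weighs most in the sum of these markers.

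Of the embryonic globin genes that Bcl11a silences in red cells, 2 of 2 did not pass. Hbb-y read 52.7, 107 and 80.7 in E2A-deficient cells and 51.5, 54.9 and 50.6 in wild-type cells (log2 change 0.55, limma adjusted p = 0.291). E2A-deficient replicate 1 lay within the wild-type range and the other E2A-deficient arrays lay above it. Without that array the Hbb-y change was 0.82 and passed (limma adjusted p = 0.0340). Hbb-y was read by a probe set that can match other sequences. Of the erythroid markers 4 were measured and 0 passed by limma, with 0 at an unadjusted p under 0.05 (summed intensity 275 to 349 in E2A-deficient and 270 to 290 in wild-type arrays). Klf1, the master factor of red cells, had the smallest p and read 85.7, 84.9 and 141 in E2A-deficient cells and 84.4, 82.6 and 77.6 in wild-type cells.

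Markers of further cell types gave 2 calls. Of 8 myeloid markers 1 rose, the Fc receptor gene Fcgr3 (log2 change 1.22, limma adjusted p = 0.00143), and 1 fell, the lysozyme gene Lyz2 (-0.50, 0.0151), with sums of 1626 to 1905 in E2A-deficient and 1400 to 1647 in wild-type arrays. Mpo alone read 1202, 967 and 938 in E2A-deficient and 1030, 829 and 861 in wild-type arrays, so it weighs most in this sum. The Lyz2 call was lost when E2A-deficient replicate 1 (0.0577) or 2 (0.0591) or wild-type replicate 3 (0.0501) was left out, and adjusted for the actin ratio. Of 5 measured natural killer markers 0 passed by limma (1 at an unadjusted p under 0.05), with the granzyme gene Gzma nearest at -0.36 and sums of 771 to 832 in E2A-deficient and 865 to 1012 in wild-type arrays. Gzma alone read 480.5, 516 and 537 in E2A-deficient and 707, 700.6 and 565 in wild-type arrays, so the sum mainly follows this gene. Leaving out wild-type replicate 3 gave Gzma a passing change (-0.46, limma adjusted p = 0.0334), as did quantile normalization (-0.45, 0.0196). Of 5 markers of thymic epithelium 0 passed (1 at an unadjusted p under 0.05), with the keratin gene Krt8 nearest at 0.46, Foxn1 and Psmb11 below the array medians, and sums of 440 to 485 in E2A-deficient and 393 to 431 in wild-type arrays. All 5 markers of mesenchyme and endothelium stayed below the array medians, with Pdgfra at the smallest p (log2 change 0.035, limma adjusted p = 0.877). Whether other cells contributed to the Bcl11b or Bcl11a values was not tested.

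Of the 6 RefSeq genes nearest to Bcl11b, 3 on each side, 3 were measured and 0 passed by limma, with 0 at an unadjusted p under 0.05, which 15.7% of all genes reached. The histone and actin methyltransferase gene Setd3 was at 0.077, the cyclin gene Ccnk at 0.11 and the noncoding 4930465M20Rik, a dim one, at -0.040. Near Bcl11a, 1 of 6 was measured, the poly(A) polymerase gene Papolg, at 0.25 (limma adjusted p = 0.445).

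The genes whose profile over the 6 arrays was nearest to the brightest Bcl11b probe set were Rbm48, Socs2, Snx30, Ctdspl and Fads2. Likeness was the root mean square difference of centred log2 values, 0.0760 to 0.0811 for these 5, over genes brighter than the median gene. All 5 had E2A-deficient arrays below the wild-type arrays, as had 6.74% of all genes, and log2 changes between -0.46 and -0.29, and 0 of them passed by limma, while all 5 had an unadjusted p under 0.05. Separate groups, lower values and small p-values follow largely from choosing genes by likeness to Bcl11b, so they are not a separate result. Nearest to Bcl11a were Rnf138, Hacd1, Ppat, Far1 and Serpinf1, at 0.0453 to 0.0972. Rnf138 read 436, 327 and 305 in E2A-deficient cells and 406, 428 and 262 in wild-type cells, the same interleaved pattern with a low wild-type replicate 3. Likeness over 6 arrays in 2 groups is a description only.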

How the data were processed

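The arrays are Affymetrix mouse expression arrays. The authors deposited 1 linear intensity per probe set and array, processed with RMA per the submitters' processing notes; its version, any later scaling or filter, and the genome build are not given in the sources used here. Per the labels' protocols, small samples of RNA were amplified through a repeated in vitro transcription, which favours 3′ ends. From these intensities log2(intensity + 1) was analysed with no further normalization or filter. The 64 control probe sets were left out, which left 45037. The annotation named 1 gene for 34945, several for 932 and none for 9160. For values per gene, each of 18193 genes took its brightest probe set. Genotypes and replicate numbers came from the labels, which do not say that replicates were separate animals, so p-values measure the spread between these samples. With 3 arrays a group, their number limits the precision.

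The test was limma 3.58.1 (R 4.3.3), a linear model with empirical Bayes moderation, two-sided, adjusted over all probe sets or genes, and was tested on simulated data. Plots used matplotlib 3.10.9 in Python 3.11.15. The genes, the lists and the rule for naming genes were chosen with earlier results of these data known. The rule named every member probe set, Tcf3, the 3 nearest RefSeq genes on each side, the 5 most alike genes, and called members of each list or its member with the smallest p. Other genes named were chosen after their values were seen. Of 125 list genes 121 were measured, and the other 4 were not analysed here. Alternatives were the replicate block, each array left out, other normalizations and pseudocounts, a filter on dim features, trended robust variances, array weights, the beta-actin covariate, the mean of probe sets, and no probe sets that match other sequences.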

Additional observations from a re-analysis of the deposited data

How the results depend on the processing

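The number of called member probe sets, 1 of 11, went to 0 with the replicate block, was 0 to 1 when each array was left out in turn, and was 2 among only probe sets brighter than the median, where fewer are tested. The number of all called probe sets, 804, was 471 with the replicate block, 114 adjusted for the beta-actin ratio and 358 to 563 without 1 array. Per gene, 0 of the 2 members were called; it was 1, Bcl11b, without wild-type replicate 1 and with the mean of probe sets (-0.60). Without 1 array, Bcl11b per gene lay between -0.55 and -0.30 and stayed negative in all 17 alternatives, and the count of called members was 0 to 1. Bcl11a per gene lay between -0.20 and 0.10 without 1 array and was above 0 in 4 of its 17 alternatives. The same sign change occurred in the Bcl11a probe sets 1419406_a_at (0.064, 0.085, 0.094 and 0.10), 1457072_at (0.019 and 0.050, with -0.090 the lowest without 1 array) and 1426552_a_at (-0.060 and -0.0034, with 0.10 the highest without 1 array, and, with the beta-actin covariate, -0.030), and 0 of these values passed by limma in any alternative. The change of Bcl11b less that of Bcl11a was -0.63 to -0.21 without 1 array, and within the replicate block its exact permutation p was 0.25, the smallest that block allows. The count of called list genes, 20, was 13 with the beta-actin covariate and 15 to 19 without 1 array. With the replicate block the calls of Bcl11b probe set 1452966_at (limma adjusted p = 0.0642), Hdac1 (0.0753) and Bcl7c (0.0982) were lost, those of Runx1 (0.0267), Nfe2 (0.0185), Themis (0.0461) and Krt8 (0.0332) were gained, and 22 list genes were called. The block rests on numbers that were not shown to pair the arrays: the deviations of same-numbered arrays from their group means correlated at 0.041, 0.041 and -0.036 across probe sets, and E2A-deficient replicate 3 did not correlate best with its own number. The causes of these shifts were not tested. Dim probe sets near the floor of the deposited values limit what could be seen for the dimmest Bcl11a probe sets.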
